A study of Macaca mulatta with 9 samples.

Results

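The nuclear pore complex and the carriers that move cargo through it were represented on the array by 47 genes of the 14132 that had a probe set with a single gene symbol. The members were taken by symbol alone: NUP followed by a digit, any symbol starting with KPNA, KPNB, XPO, IPO, TNPO, RANBP or RANGAP, and CSE1L, ALYREF, RAN and RCC1. They had 104 probe sets, and each gene was read from its brightest one by mean over the 9 arrays. Of these genes, 18 are pore proteins (nucleoporins) and 29 are carriers, Ran pathway proteins, other Ran-binding proteins and the mRNA export adaptor ALYREF. RCC1, XPO1, KPNA2, NUP155, NUP107, NUP62, NUP85 and NUP214 were not analysed here, because no probe set in the annotation used carried their symbol alone. NUP155 is among the genes that the study selected on these arrays, so counts of called members below do not cover it.

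The ovaries came from 3 young (3 to 4 years), 3 middle-aged (7 to 8 years) and 3 old (18 to 19 years) female rhesus monkeys, with 1 monkey per array and part of 1 ovary per monkey. Young monkeys cycled but had never bred, middle-aged monkeys were fertile, and old monkeys were no longer able to reproduce. All were perfused before the ovary was frozen, and the young and middle-aged ovaries were taken near proestrus, while no cycle stage is given for the old ones in the sources used here. Values are intensities on a linear scale, as deposited, and differences are given as log2 fold changes from limma with their 95% confidence intervals.

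Nuclear pores are the channels of the nuclear envelope. A scaffold of outer rings (the Y complex) and an inner ring holds flexible phenylalanine-glycine (FG) proteins that fill the channel, while filaments face the cytoplasm and a basket faces the nucleus. Importins and exportins carry proteins and RNAs through this mesh, and the small GTPase RAN sets the direction, being charged with GTP in the nucleus and made to hydrolyse it at the cytoplasmic side. Growing oocytes, which make and store large amounts of RNA and protein, have a large nucleus, and the amphibian oocyte nucleus is a long-used model of the pore.

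No member passed the test in any of the 3 comparisons, yet most estimates for old against young ovaries were negative. Old ovaries had the lower mean log2 intensity than young ovaries for 38 of the 47 members (80.9%, against 50.6% of all genes), and the median log2 fold change was -0.15 for the members, 0.00 for all genes and -0.03 for the genes brighter than the median probe set. In 14 members, every value was lower in the 3 old ovaries than in any young ovary (29.8% of members), a pattern that 13.8% of all genes and 16% of the brighter genes showed. None lay higher in all 3 old ovaries, a pattern that 7.8% of all genes showed. These shares describe the list, and the difference between members and all genes was not tested.

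A member was called where limma gave a difference of 1.5-fold or more and its p, adjusted by the Benjamini-Hochberg method over 52766 probe sets, was under 0.05. Among all probe sets 0.129% were called lower and 0.0265% higher in old than in young ovaries, and among members 0 of 47 genes and 0 of 104 probe sets were called. The smallest adjusted p among the members was 0.122, for ALYREF. At an unadjusted p under 0.05, 14 members had negative estimates (12% of all genes did) and 0 had positive ones (6.8% of all genes did). A fold of at least 1.5 in the negative direction was reached by 8 members (10.5% of all genes), namely NUP133, TNPO3, IPO5, XPO6, NUP88, ALYREF, NUP93 and RAN, and in the positive direction by 0 members (8.07% of all genes). SAM, a permutation-based method, also called 0 members and 0 of their 104 probe sets.

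**Figure D1:**
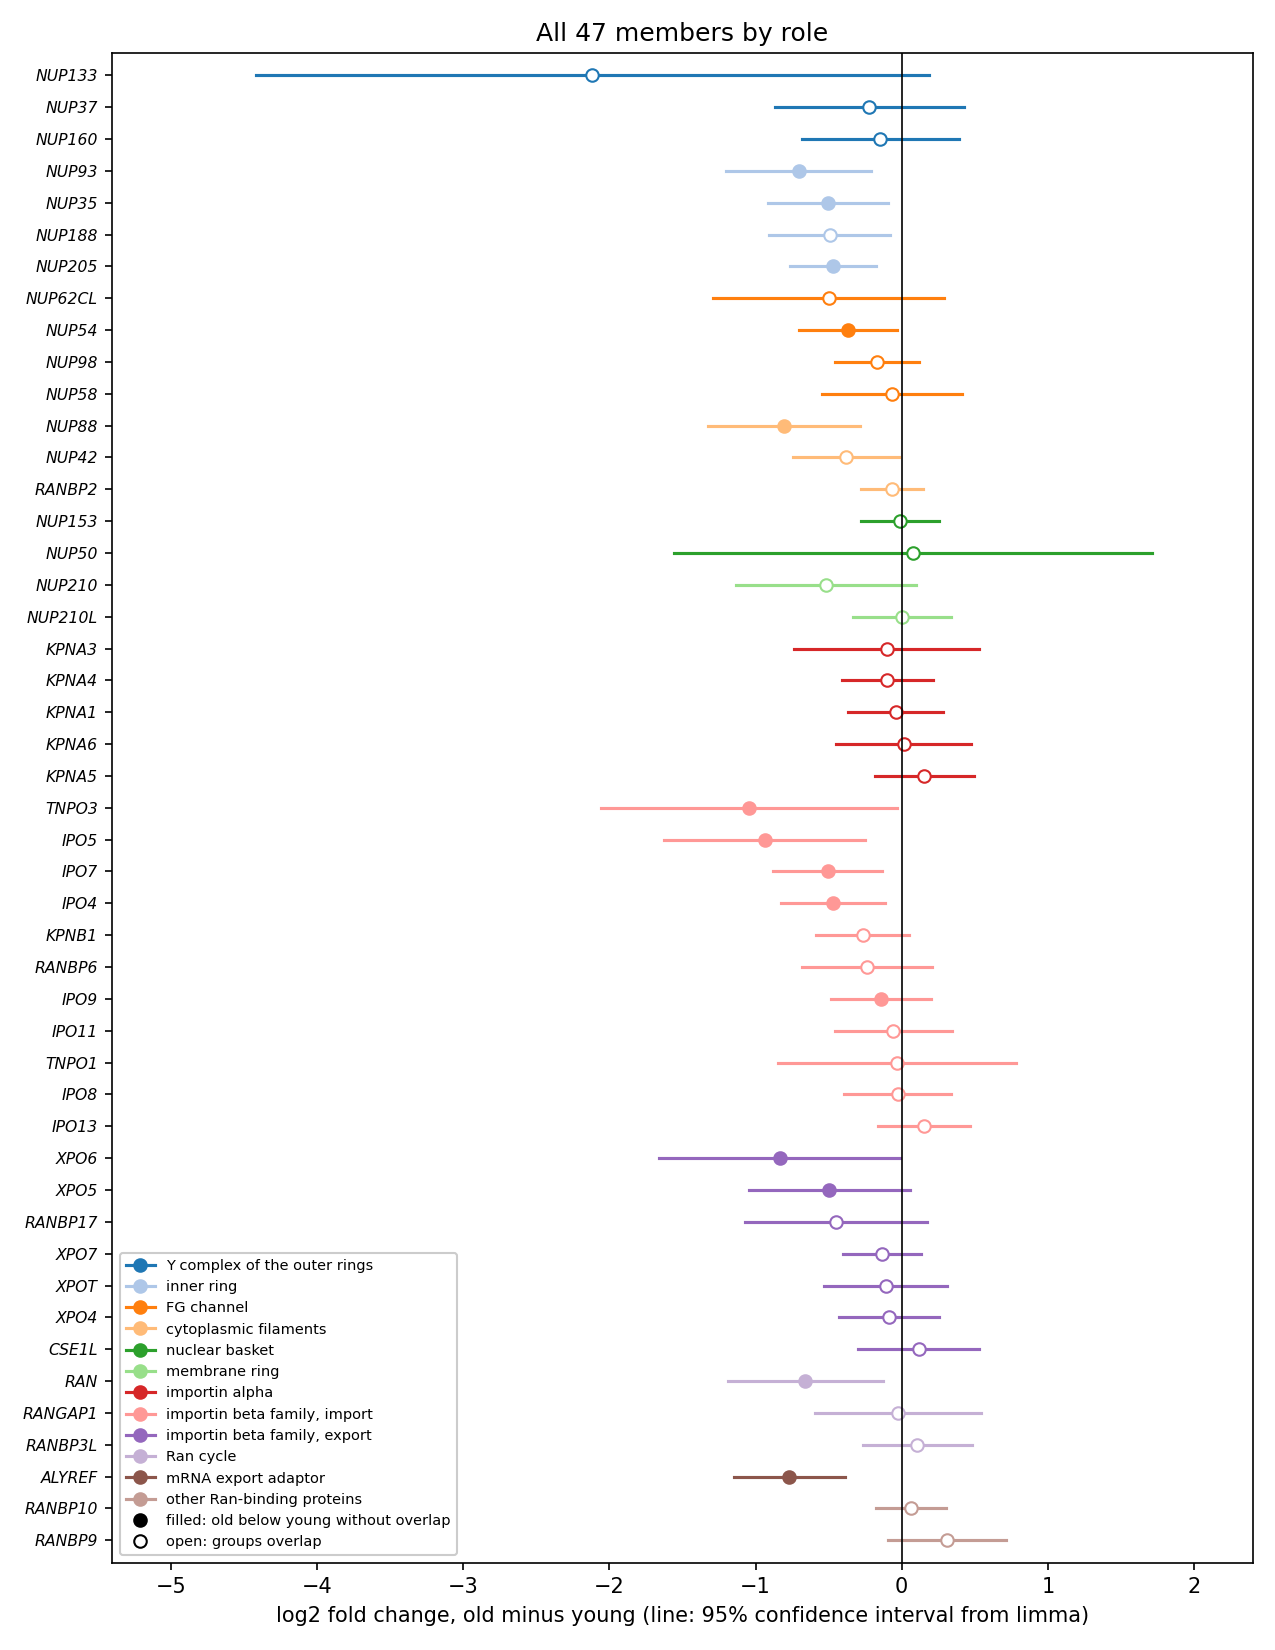
Log2 fold change of old minus young ovaries (x axis) for each of the 47 members (rows), coloured by role, with the 95% confidence interval from limma as a line. Filled points are the 14 members whose 3 old values all lay below all 3 young values, and 38 of the 47 points lie left of 0.

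RNA from whole ovary was measured, so fewer cells of a type and less RNA per cell cannot be told apart. Oocyte markers and cell-division genes moved with the same groups. The summed intensity of 17 measured oocyte markers (of 24 listed) was 3171 to 9289 in young, 1952 to 7204 in middle-aged and 544 to 731 in old ovaries. Of these markers, 14 were lower in old than in young ovaries without overlap, and 1, ZP4, was higher without overlap (0.83). For 13 measured cell-division genes (of 20 listed) the sums were 5396 to 13198 in young, 3699 to 8697 in middle-aged and 1500 to 2856 in old ovaries, with 11 lower without overlap. Of 10 measured endothelial markers, 5 were higher in old than in young ovaries without overlap, with sums of 3626 to 12232 in old and 2556 to 3243 in young ovaries. Sums of 3 further lists also separated the old from the young ovaries. Theca markers summed to 7672 to 36537 in old and 2023 to 6701 in young ovaries, smooth muscle and pericyte markers to 9122 to 25798 in old and 6280 to 7806 in young ovaries, and surface epithelium markers to 1491 to 2441 in old and 2992 to 6127 in young ovaries. Oocyte, cell-division and surface epithelium sums were thus lower in the old than in the young ovaries and endothelial, theca and smooth muscle sums higher. Between old and middle-aged ovaries the endothelial, smooth muscle and surface epithelium sums overlapped. The median centred log2 levels of the theca and smooth muscle lists overlapped between old and young ovaries, unlike their sums. The part of these lists in the members' values was not tested.

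Counted by gene and without overlap, surface epithelium markers were lower in old than in young ovaries for 5 of 9 and macrophage markers for 1 of 7. That macrophage marker was the only 1 of the 7 with a negative estimate, and the median of the list was 0.30. Smooth muscle and pericyte markers were higher for 2 of 6 and theca markers for 1 of 5, and granulosa cell markers split into 2 lower and 2 higher of 9. Among all genes, 13.8% were lower and 7.8% higher without overlap. The 7 stromal fibroblast markers and the 1 measured T cell marker overlapped. On the control probe sets, the 5′ signal of EF1A was 32.2%, 35.8% and 38.5% of the 3′ signal in old ovaries and 50.4% to 62.8% in the other 6, whereas the corresponding actin and GAPDH values overlapped between the ages. The part of this difference in the members' values was not tested either.

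The inner ring had 4 measured proteins with estimates close to each other. All 4 were negative for old against young ovaries, between -0.71 and -0.47. For 3 of them old ovaries were lower without overlap, against 13.8% of all genes. NUP93 (Entrez Gene 710084), which ties the inner ring together, had intensities of 338, 523 and 351 in young, 394, 326 and 300 in middle-aged and 278, 268 and 192 in old ovaries. The 3 old ovaries were the lowest of the 9, and the estimates were -0.71 (interval -1.20 to -0.21, adjusted p = 0.226) against young and -0.48 (-0.97 to 0.02) against middle-aged ovaries. NUP35 (Entrez Gene 706497), also called NUP53, a small inner-ring protein that touches the membrane, had 534, 681 and 822 in young, 555, 616 and 743 in middle-aged and 460, 521 and 437 in old ovaries. Here too every old value was below the other 6, although old 2 was only slightly below young 1, and the estimate against young was -0.51 (-0.92 to -0.09, adjusted p = 0.285).

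NUP205 and NUP188 are the large paralogous scaffold proteins that bind NUP93. NUP205 had 274, 343 and 276 in young, 249, 261 and 224 in middle-aged and 201, 232 and 208 in old ovaries. All 3 young ovaries were above the other 6, and old and middle-aged ovaries overlapped. The estimate of old against young was -0.47 (-0.76 to -0.18, adjusted p = 0.188), and a second, dim probe set of 3.95 to 5.45 gave -0.27, again without overlap. NUP188 had an estimate of similar size, -0.49 (-0.90 to -0.08), but its groups overlapped by a small margin, since old 1 stood at 259 and young 3 at 257. The 2 dimmer NUP188 probe sets gave 0.18 and -0.12, with overlapping groups.

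On the cytoplasmic face, NUP88 (Entrez Gene 711734), which anchors the mRNA export platform there, had the most negative estimate of the 4 members that set all old ovaries below the other 6. Its values were 152, 269 and 210 in young, 147, 165 and 192 in middle-aged and 135, 125 and 95.4 in old ovaries. The means were 210 ± 58.7 in young, 168 ± 22.8 in middle-aged and 118 ± 20.5 in old ovaries (SD, n = 3 each), with estimates of -0.81 (-1.32 to -0.29, adjusted p = 0.2) against young and -0.51 (-1.03 to 0.01) against middle-aged ovaries. The spread among the young ovaries was the widest, and old 1 was close to young 1 and middle-aged 1. NUP42, which works with GLE1 in mRNA release, had 41.9, 34.9 and 37.1 in old and 39.8, 50.5 and 59.4 in young ovaries (-0.38, -0.74 to -0.02), with overlap. RANBP2 (NUP358), the filament protein that holds RANGAP1 at the pore, differed little, with 331, 373 and 360 in old and 369, 370 and 373 in young ovaries (-0.07, -0.28 to 0.15).

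In the central channel, NUP54, a partner of NUP62 and NUP58, was the 1 of 4 members whose old and young ovaries did not overlap. NUP54 (Entrez Gene 700112) had 568, 583 and 538 in young, 551, 577 and 577 in middle-aged and 345, 496 and 485 in old ovaries. Young and middle-aged ovaries were nearly equal, and the old ovaries lay below both, with old 1 the farthest. The estimates were -0.37 (-0.70 to -0.03) against young and -0.38 (-0.72 to -0.05) against middle-aged ovaries, and without old 1 they were -0.20 and -0.21. NUP58, NUP98 (an FG protein that forms much of the barrier) and the NUP62-related NUP62CL had estimates of -0.07, -0.17 and -0.50 against young ovaries, all with overlapping groups. NUP62CL was dim, between 11 and 33.8, and its interval ran from -1.29 to 0.29, with an estimate of -0.22 without young 3.

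On their brightest probe sets, the members of the Y complex, the basket and the membrane ring overlapped between the ages. NUP133 had the most negative estimate of all 47 members, -2.12, but a wide interval (-4.42 to 0.18). Its values were 141, 71.8 and 5.98 in young, 6.54, 7.37 and 10.3 in middle-aged and 6.34, 7.66 and 15.3 in old ovaries, so that young 1 and young 2 were high and the other 7 ovaries, young 3 included, were near the bottom of the scale. Without young 1 the estimate was -1.19, and without young 3 it was -3.47. The other Y complex members, NUP37 and NUP160, had -0.22 and -0.15, with overlap.

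NUP50, a basket protein that helps importin alpha shed its cargo, turned on 1 ovary. It had 623, 85.9 and 83.8 in old and 224, 160 and 106 in young ovaries, and the estimate of 0.08 (-1.55 to 1.72) became -0.88 without old 1. NUP153, the other basket protein, was dim (9.93 to 12.7) and gave -0.01. Of the membrane-spanning pair, NUP210 had -0.52 (-1.14 to 0.10) with overlapping groups, and NUP210L, at 4.09 to 5.80 among the dimmest probe sets, gave 0.00.

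**Figure D2:**
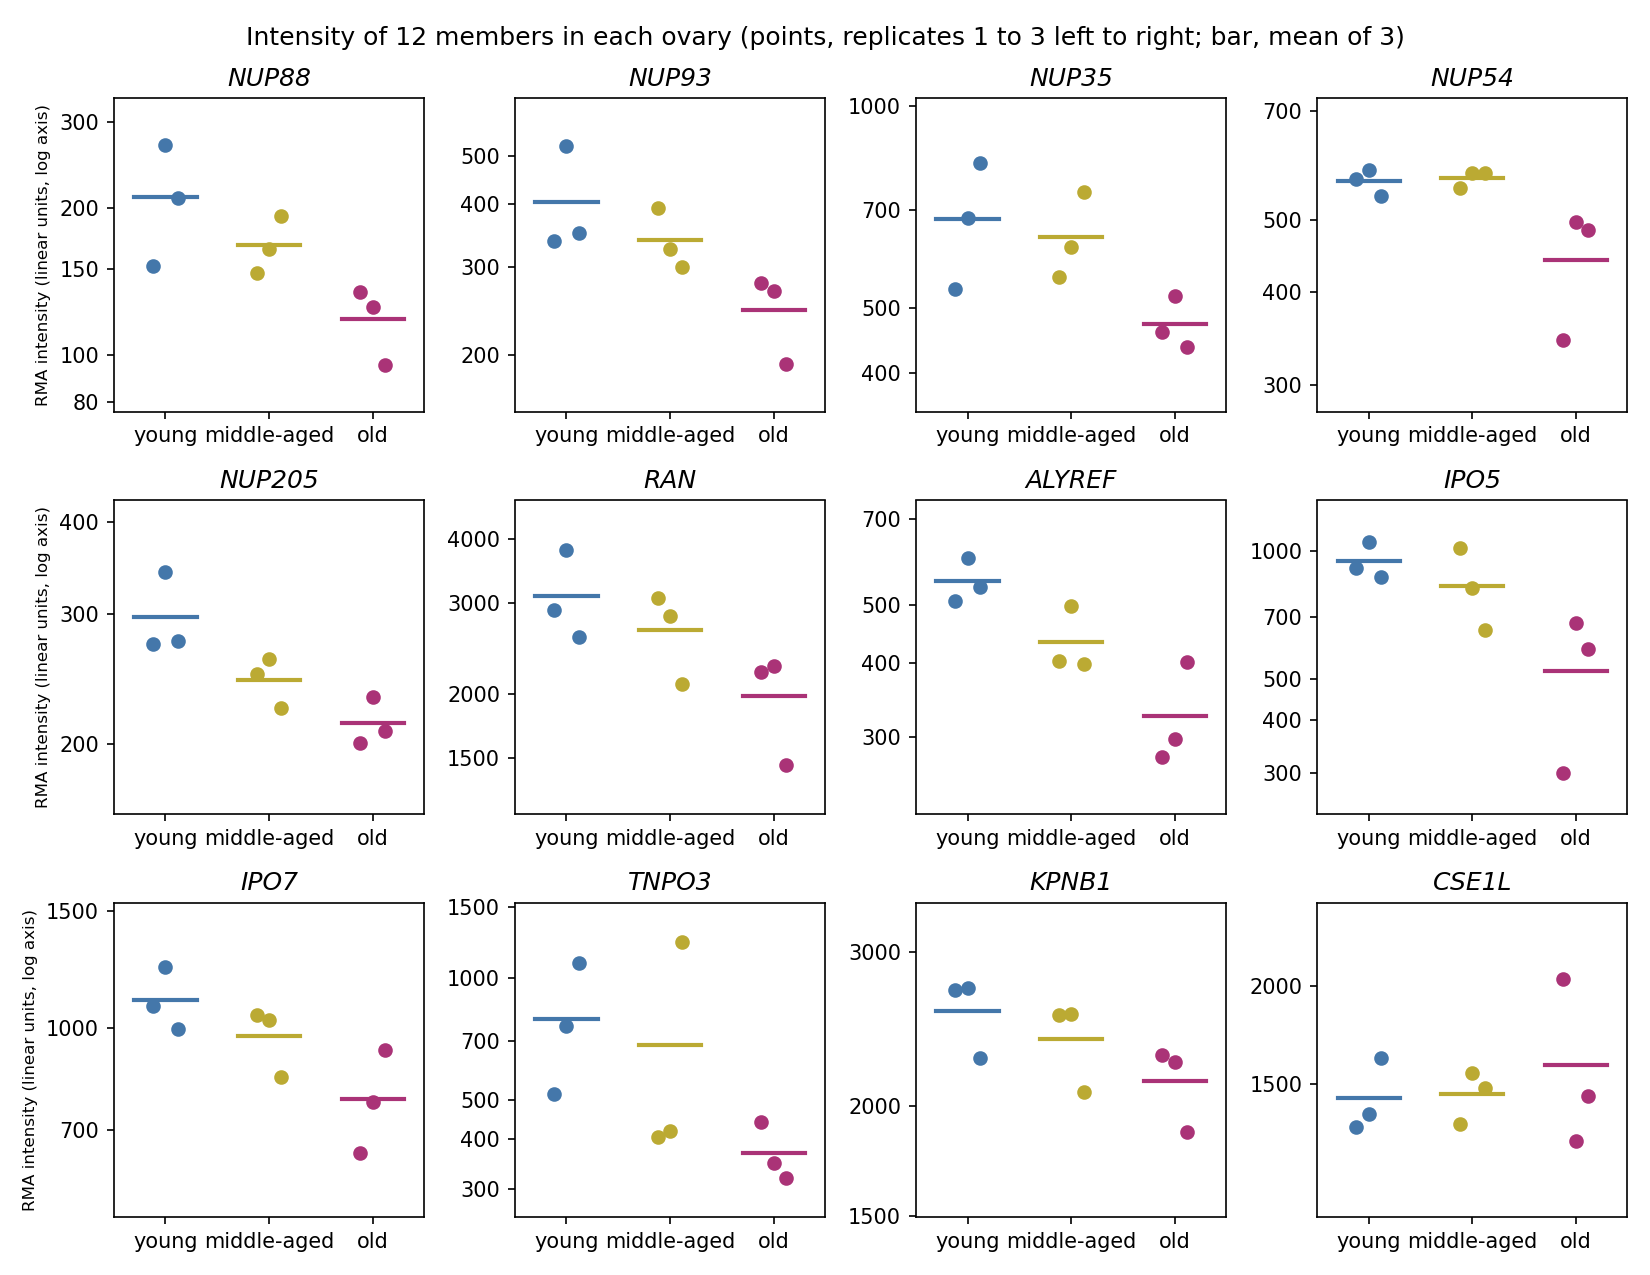
Intensity (y axis, linear units on a log axis whose range differs between panels) of 12 members in each of the 9 ovaries, by age group (x axis). Points are single ovaries and bars the means of 3. NUP88, NUP93, NUP35 and NUP54 had all 3 old ovaries below the other 6. Old 1 was the lowest value for IPO5, IPO7, ALYREF, NUP205 and NUP54, and the highest for CSE1L.

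Taking the pore proteins as a class, 16 of 18 had negative estimates for old against young ovaries with a median of -0.37, and 5 did not overlap. Among the 29 carriers and other proteins, 22 were negative with a median of -0.10, and 9 did not overlap. For comparison, 13.8% of all genes and 16% of the brighter genes were lower in old than in young ovaries without overlap. The difference between the classes was not tested. The 4 members below all 6 other ovaries in every old ovary (NUP35, NUP54, NUP88 and NUP93) were all pore proteins. Across the array 6.98% of all genes and 8.38% of the brighter genes had this pattern, against 4 of 47 members, so the count over the members is near the background. No member lay above the other 6 in every old ovary, which 2.77% of all genes did.

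Among the carriers, the 5 measured importin alpha proteins, which recognise the classical import signal, stayed within a narrow band. On their brightest probe sets, KPNA1, KPNA3, KPNA4, KPNA5 and KPNA6 had estimates between -0.10 and 0.16 for old against young ovaries, and all overlapped. KPNA4 had 798, 869 and 942 in old ovaries, against 993, 1066 and 973 in middle-aged ovaries, and these groups did not overlap (-0.22, -0.53 to 0.09). Its young ovaries, at 1066, 784 and 957, spanned both. KPNA5 had the most positive value of the family on these probe sets, with 239, 239 and 171 in old and 200, 186 and 190 in young ovaries (0.16, -0.18 to 0.49). Over all their probe sets, KPNA5 ran from -0.23 to 0.16, KPNA4 from -0.10 to 0.25 and KPNA6 from -0.07 to 0.21.

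KPNB1, the importin beta that pairs with these adaptors, had 2289, 2249 and 1871 in old and 2710, 2727 and 2268 in young ovaries. Only old 1, at 2289, passed the lowest young value, and the estimate was -0.27 (-0.59 to 0.05, adjusted p = 0.451). Without old 3 it was -0.17. Its second probe set gave -0.03, so the size of the estimate rested on 1 probe set.

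Of 11 import receptors of the importin beta family, 10 had negative estimates. In 5 of them old ovaries were lower than young ones without overlap, against 13.8% of all genes. IPO5, which carries ribosomal proteins and histones, had 913, 1053 and 871 in young, 1019, 816 and 652 in middle-aged and 299, 678 and 586 in old ovaries. All old ovaries were below all young ones, and old 1 was far below the rest. The estimate against young was -0.94 (-1.62 to -0.25, adjusted p = 0.241) with all arrays and -0.58 without old 1. Of its 6 probe sets, 3 had old below young without overlap, with estimates of -0.94, -0.83 and -0.82, and the others gave -0.63, -0.27 and 0.06.

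IPO7, a carrier of ribosomal proteins, had 646, 772 and 924 in old and 1078, 1235 and 994 in young ovaries. The estimate was -0.51 (-0.88 to -0.14, adjusted p = 0.243), and its second probe set, at 348, 326 and 394 in old and 527, 514 and 437 in young ovaries, gave -0.47 with all old ovaries below the middle-aged ones too. IPO4, an importer of histones, had 244, 232 and 209 in old and 302, 308 and 336 in young ovaries (-0.47, -0.83 to -0.11). Its 3 old values lay close together below the young ones, while middle-aged 3, at 204, was the lowest of all 9.

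IPO9, a carrier of histones H2A and H2B, separated the same groups by a much smaller difference. It had 294, 274 and 261 in old and 307, 310 and 297 in young ovaries, and its interval included 0 (-0.14, -0.48 to 0.20). TNPO3, which imports the serine-arginine splicing factors, had 440, 349 and 320 in old and 516, 763 and 1095 in young ovaries, without overlap (-1.05, -2.06 to -0.03). The middle-aged ovaries split into 404 and 419 against 1231 in middle-aged 3, and young 3 was also high. Another TNPO3 probe set, at 562, 456 and 346 in old and 468, 504 and 500 in young ovaries, gave -0.14, so the size of the TNPO3 difference depended on the probe set.

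The remaining import receptors overlapped. RANBP6, IPO11, TNPO1 and IPO8 had estimates of -0.24, -0.06, -0.03 and -0.03, and IPO13, which carries cargo both ways, had 0.15 (-0.16 to 0.47). For TNPO1, the receptor for hnRNP proteins, old 2 stood at 3199 and the other 8 ovaries between 1147 and 1895. IPO8 had a dimmer probe set at 49.2, 60.2 and 44.6 in old and 35.4, 36.6 and 35.7 in young ovaries, which was higher in old ovaries without overlap (0.51, 0.13 to 0.88, adjusted p = 0.246), while its brightest one gave -0.03.

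Of 7 export receptors, 6 had negative estimates, and XPO5 and XPO6 were lower without overlap (13.8% of all genes were). XPO6, the exporter of actin and profilin, had 549, 597 and 431 in old and 817, 1523 and 646 in young ovaries. Young 2 was the highest by far, and the estimate of -0.84 (-1.66 to -0.01) was -0.48 without it. XPO5, which exports microRNA precursors, had 190, 176 and 123 in old and 198, 244 and 238 in young ovaries (-0.50, -1.05 to 0.06), and a second probe set gave -0.45, also without overlap. Without old 3 the estimate of the brighter one was -0.31. Old 1 and young 1 were separated by a few units only. RANBP17, XPO7, XPOT (the tRNA exporter) and XPO4 had -0.45, -0.13, -0.11 and -0.09, all with overlap.

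CSE1L, which returns importin alpha to the cytoplasm, gave different answers on its 4 probe sets. The brightest had 1325, 1375 and 1621 in young, 1335, 1553 and 1482 in middle-aged and 2041, 1272 and 1451 in old ovaries (0.12 for old against young, -0.30 to 0.53), and without old 1 the sign turned, to -0.08. The second probe set had 1111, 500 and 337 in old and 434, 445 and 423 in young ovaries (0.40). Old 1 was the highest ovary on both. Both remaining probe sets, much dimmer, ran the other way. On the brighter of them, old ovaries had 52.0, 51.1 and 45.3, against 70.6, 95.4 and 94.3 in young ovaries, without overlap (-0.80, -1.16 to -0.44, adjusted p = 0.107, the smallest of the 104 probe sets), and on the other the estimate was -0.46, again without overlap. CSE1L, like ALYREF, is among the genes that the study selected on these same arrays, so its values here are no independent evidence.

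RAN itself was lower in estimate on both of its probe sets. The brighter one had 2915, 3809 and 2580 in young, 3068, 2833 and 2087 in middle-aged and 2208, 2267 and 1455 in old ovaries. Old and young ovaries did not overlap (-0.66, -1.19 to -0.13, adjusted p = 0.282), and the value of middle-aged 3 lay among the old ones. The other had 1742, 1707 and 1920 in young, 1709, 1747 and 1724 in middle-aged and 787, 1296 and 1369 in old ovaries. There the young and middle-aged ovaries were almost level, all old ovaries were below them, and the estimates were -0.68 (-1.13 to -0.23, adjusted p = 0.21) against young and -0.63 (-1.08 to -0.17) against middle-aged ovaries. RANGAP1, which activates the GTPase of RAN at the cytoplasmic side, had 123, 129 and 89.7 in old and 126, 133 and 89.8 in young ovaries (-0.02, -0.59 to 0.55). RANBP3L, a relative of the export cofactor RANBP3, was dim (6 to 10.3) and gave 0.11.

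ALYREF, the adaptor that hands spliced mRNA to the export receptor NXF1, had 509, 601 and 536 in young, 404, 499 and 398 in middle-aged and 278, 298 and 402 in old ovaries. The young ovaries were above all others, old 1 and old 2 were below all others, and old 3 lay at the level of middle-aged 1 and middle-aged 3. The means were 549 ± 47.1 in young, 433 ± 56.8 in middle-aged and 326 ± 66.7 in old ovaries (SD, n = 3 each). Estimates were -0.77 (-1.15 to -0.39, adjusted p = 0.122) for old against young, -0.42 (-0.80 to -0.04) for old against middle-aged and -0.35 (-0.73 to 0.03) for middle-aged against young ovaries. RANBP9 and RANBP10, Ran-binding proteins known as parts of a ubiquitin ligase, were the only role with no negative estimate on the brightest probe sets. RANBP9 had 694, 603 and 479 in old and 449, 461 and 507 in young ovaries (0.31, -0.09 to 0.72), the most positive value of the 47 members, and RANBP10 gave 0.06. The 3 RANBP10 probe sets ran from -0.02 to 0.42, and 1 of them was higher in old than in young ovaries without overlap.

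The choice of probe set mattered for 9 members, whose probe sets differed in sign and by over 0.5 on the log2 scale: CSE1L, IPO5, IPO7, IPO8, NUP160, NUP188, NUP210, NUP98 and RANBP2. In NUP160 the brightest probe set gave -0.15 and the dimmest, at 13.5, 13.6 and 13.5 in old and 7.82, 11.5 and 10.7 in young ovaries, gave 0.45 without overlap. In RANBP2 the 5 probe sets ran from -0.31 to 0.41. Over all 104 member probe sets, 22 were lower in old than in young ovaries without overlap and 3 were higher, against 9.46% and 7.38% of all probe sets. The directions of RAN, XPO5, NUP205 and TNPO3 were the same on each of their probe sets.

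**Figure D3:**
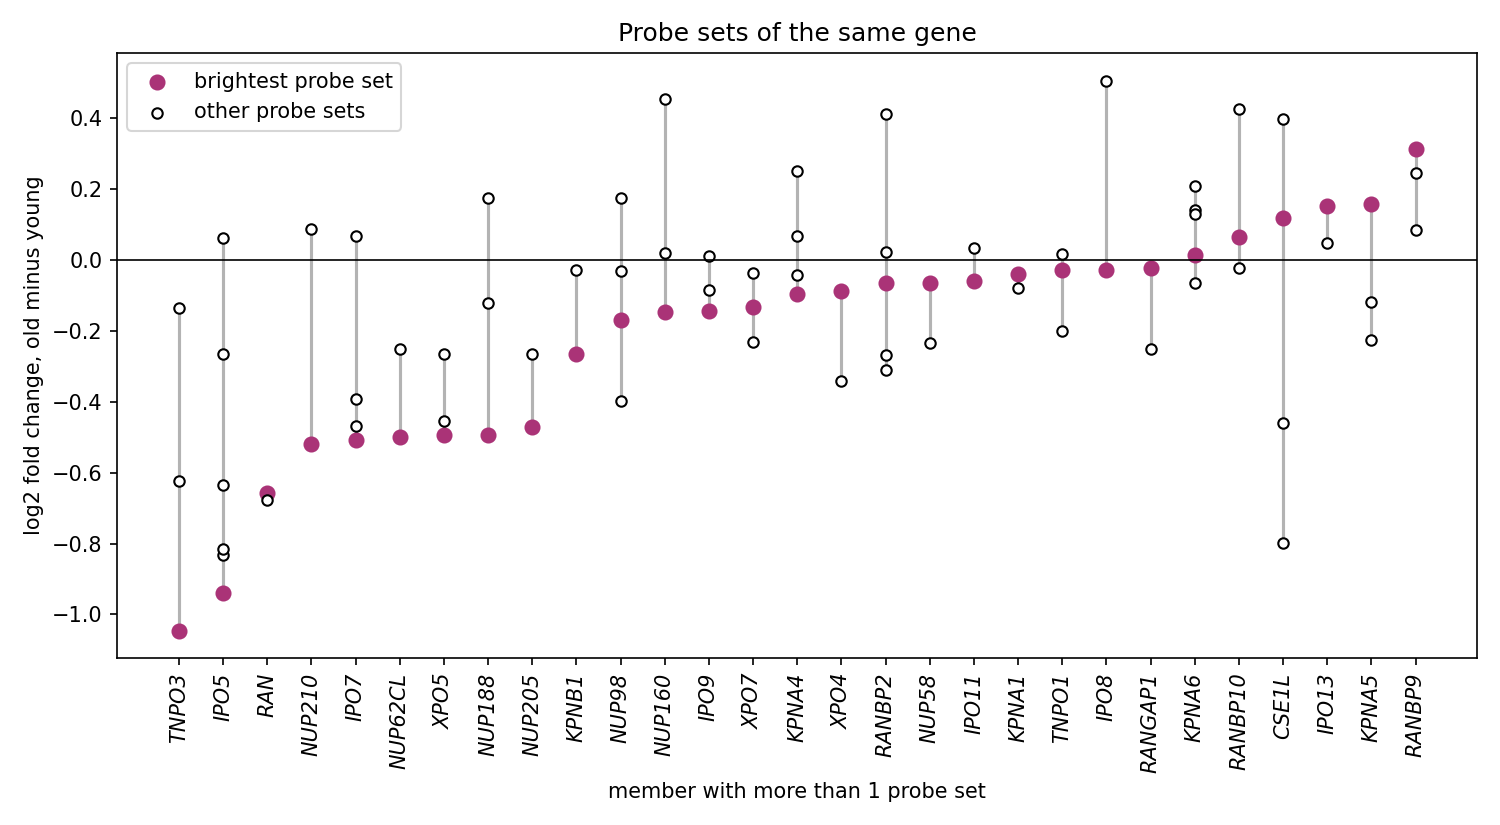
Log2 fold change of old minus young ovaries (y axis) for every probe set of the 29 members with more than 1 (x axis), with the brightest probe set filled and grey lines joining probe sets of a gene. RAN gave -0.66 and -0.68, whereas CSE1L ran from -0.80 to 0.40.

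Against middle-aged ovaries, the old ovaries had negative estimates for 32 of 47 members (68.1%, against 49.4% of all genes), with a median of -0.13 and 0.00 for all genes. The old arrays are the same as in the comparison with young ovaries, so the results of both comparisons are not independent. Of all probe sets 0.0341% were called lower and 0% higher, and 0 members were called by limma or SAM, with a smallest adjusted p of 0.595, for NUP54. At an unadjusted p under 0.05, 4 members were lower (7.61% of all genes) and 0 higher (3.67%). IPO5 and TNPO3, the 2 members lower by at least 1.5-fold (6.99% of all genes), had estimates of -0.73 (-1.41 to -0.04) and -0.69 (-1.71 to 0.32), and 0 were higher by as much (5.89%). Single ovaries set the size of both, since IPO5 was at -0.37 without old 1 and TNPO3 at -0.17 without middle-aged 3. There were 6 members lower without overlap (12.8%, against 9.22% of all genes), and all but KPNA4 were pore proteins: NUP35, NUP54, NUP88, NUP93 and RANBP2. None was higher without overlap (5.57% of all genes). For RANBP2 the difference was small, with 331, 373 and 360 in old and 396, 376 and 387 in middle-aged ovaries (-0.13, -0.34 to 0.09). Without middle-aged 3, 17 members were lower without overlap (36.2%, against 15.3% of all genes), and without old 1, 13 were (27.7%, against 13.7%).

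Middle-aged and young ovaries were less far apart. The estimates were negative for 36 of 47 members (76.6%, against 53.6% of all genes), with a median of -0.11 and -0.02 for all genes. Of all probe sets 0.0019% were called lower and 0% higher, and 0 members were called by limma or SAM. At an unadjusted p under 0.05, 1 member was lower (1.91% of all genes), namely NUP133, and 0 were higher (1.43%). NUP133 was also the 1 member lower by at least 1.5-fold (3.29% of all genes), and 0 were higher by as much (2.49%). ALYREF, IPO4 and NUP205 were lower in middle-aged than in young ovaries without overlap (3 of 47, or 6.38%, against 4.53% of all genes), and RANBP2, at 396, 376 and 387 in middle-aged and 369, 370 and 373 in young ovaries, was higher without overlap (2.13% of members, against 4.87% of all genes). NUP133, with the widest interval, had -2.31 (-4.61 to -0.01), followed by the dim NUP62CL with -0.50 (-1.29 to 0.29) and by ALYREF and TNPO3 with -0.35 each. The TNPO3 value was -0.88 without middle-aged 3 and -0.07 without middle-aged 1. The mean log2 level was successively lower in middle-aged and in old ovaries for 24 of 47 members and successively higher for 3, patterns that 26.4% and 23.4% of all genes had.

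The 9 ovaries did not contribute evenly. Taking each member's log2 intensity minus its mean over the 9 arrays, the median over the 47 members was 0.05, 0.19 and 0.05 in young, 0.07, 0.06 and -0.09 in middle-aged and -0.04, -0.10 and -0.25 in old ovaries, whereas the medians over all genes lay between -0.04 and 0.01. Young 2 and old 3 thus formed the ends of the range, and middle-aged 3 fell between old 1 and old 2. Young 2 had the highest value of the 9 for 20 members (12.6% of all genes), and old 3 the lowest for 18 (17.1% of all genes). Old 1 was the lowest for 11 members and the highest for 7, against 21.2% and 20% of all genes. Without old 1, 23 of 47 members were lower in old than in young ovaries without overlap (48.9%, against 19.5% of all genes).

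**Figure D4:**
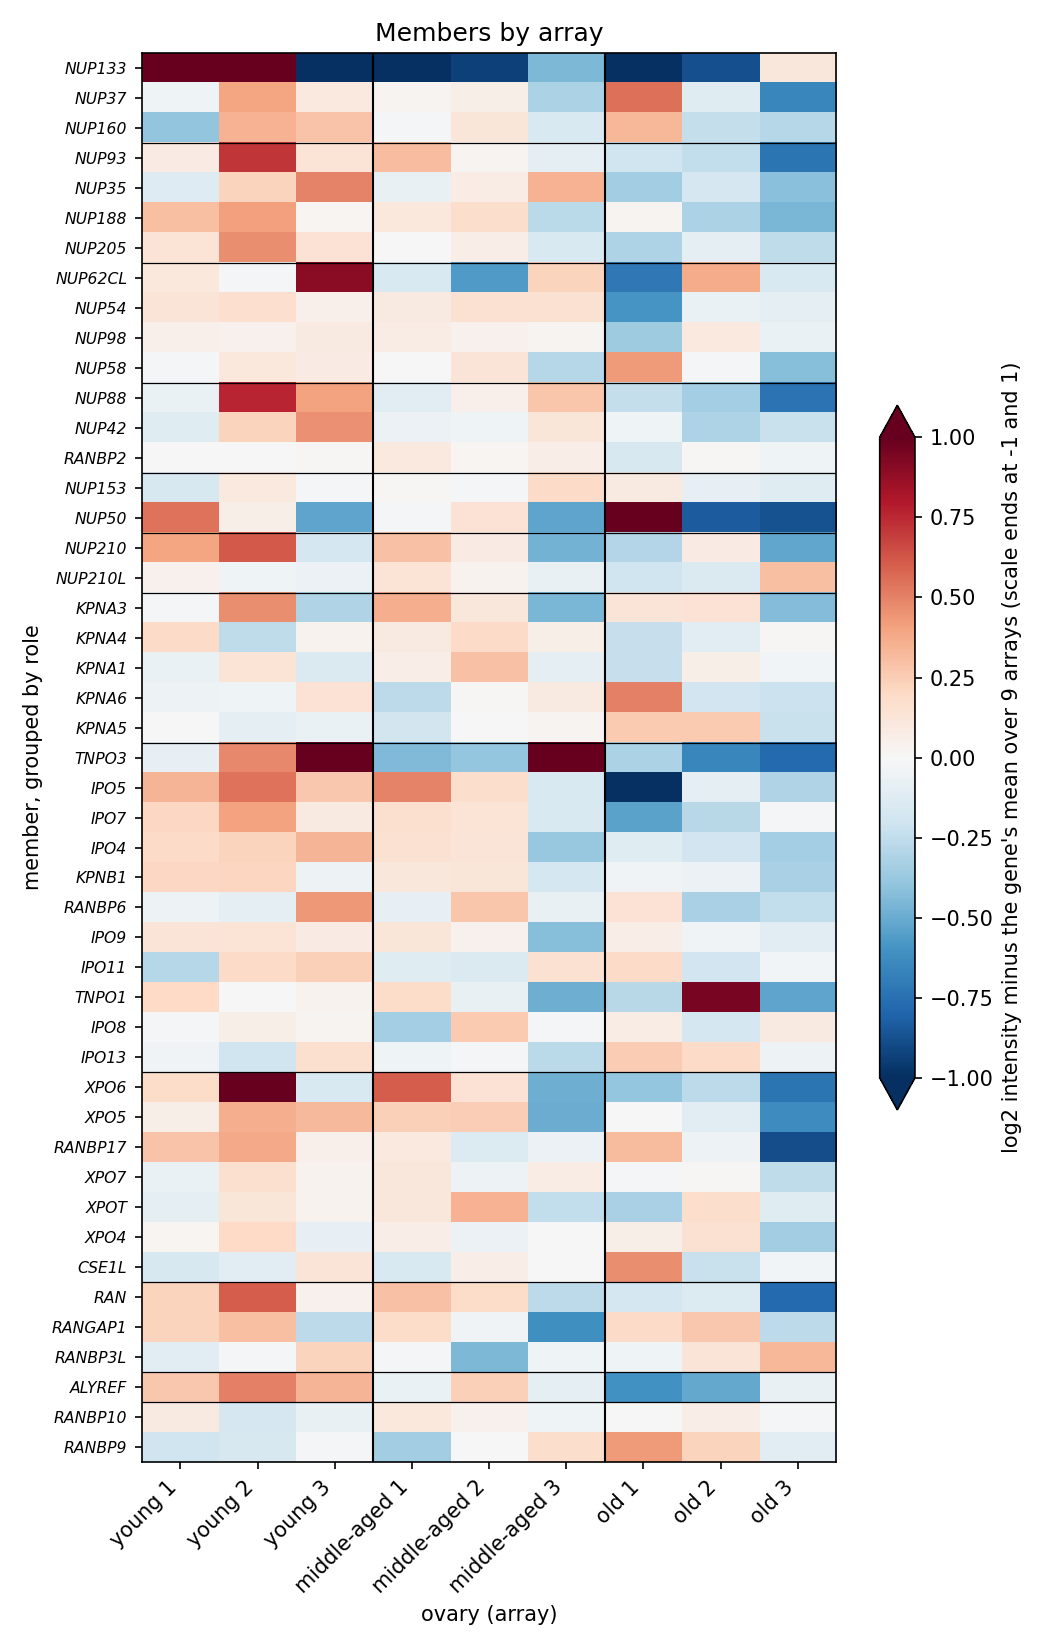
Deviation of log2 intensity from the mean of that gene across all 9 arrays (colour, red above and blue below, scale ending at -1 and 1) for the 47 members (rows, grouped by role with lines between roles) in each ovary (columns). Young 2 holds the highest value for 20 members and old 3 the lowest for 18, and NUP133 is high in young 1 and young 2 only.

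Other genes of the pathway gave estimates of the same order, and none of them was called. Of 8 measured pore or pore-associated proteins whose symbols lie outside the rule (14 symbols listed), all 8 were negative for old against young ovaries. Their median was -0.30, and POM121C, RAE1 and MAD1L1 did not overlap. MAD1L1, a spindle checkpoint protein rather than a nucleoporin, had the most negative estimate of the 8 (-0.77). Of 22 measured further transport factors (30 listed), 19 were negative with a median of -0.25, and 7 were lower without overlap: NXF1, NCBP1, NCBP2, PCID2, THOC3, THOC6 and CHTOP. None of either list was higher without overlap. Among all genes, 13.8% were lower and 7.8% higher without overlap.

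Of these 22 transport factors, 4 were below the other 6 ovaries in every old ovary, a pattern of 6.98% of all genes. They are given here because of that pattern. THOC3, a THO complex subunit, had 135, 156 and 152 in old and 254, 335 and 235 in young ovaries (-0.88, -1.26 to -0.51, adjusted p = 0.0971). NCBP1, the large cap-binding subunit, had 138, 102 and 105 in old and 167, 266 and 261 in young ovaries (-0.99, -1.53 to -0.45, adjusted p = 0.15). NXF1, the mRNA export receptor that ALYREF loads, had 602, 867 and 821 in old and 1042, 981 and 1097 in young ovaries (-0.46, -0.81 to -0.12), and CHTOP, another export adaptor, had -0.31 (-0.57 to -0.06). Outside that pattern, the old against young intervals of NXT1 (-0.55, groups overlapping), THOC6 (-0.53) and PCID2 (-0.43) also lay below 0. The remaining mRNA export genes of the same list had estimates whose intervals included 0, among them POLDIP3 (-0.01), ENY2 (-0.08), THOC5 (-0.11), THOC7 (-0.18) and DDX39A (-0.51). THOC3 and NCBP1, like the lamina genes TMPO and LMNB1, are among the genes that the study selected on these arrays, and are no independent evidence.

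Of 11 measured lamina and envelope genes (15 listed), 7 were negative with a median of -0.16. TMPO and LMNB1 were lower without overlap (13.8% of all genes were). TMPO, which makes the lamina-binding LAP2 proteins, had 818, 971 and 597 in young, 752, 678 and 488 in middle-aged and 257, 333 and 278 in old ovaries, with old ovaries below the other 6 (old against young -1.44, -1.95 to -0.93, adjusted p = 0.0679). LMNB1, which codes for a B-type lamin, had 188, 119 and 103 in old and 484, 1026 and 308 in young ovaries (-2.02, -3.48 to -0.55, adjusted p = 0.239), and middle-aged 3, at 148, lay among the old values.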

How the data were processed

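Total RNA of 9 monkey ovaries had been hybridised to 1-colour Affymetrix rhesus macaque arrays. Per the labels, the authors made the deposited intensity values with RMA, and they are on a linear scale. In the paper's methods, LOWESS and dye reversal are named, steps used for 2-colour slides, and this difference could not be settled. Detection calls and batches were not given in the sources used here, and the array number limits precision.

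The deposited intensities were taken to log2 with no further normalization. Of 52865 probe sets, 99 controls were left out. Symbols came from the platform annotation: 24956 probe sets had 1, 361 had several and 27449 had none, and only the first kind was named. Groups came from the labels, whose replicates are separate monkeys. limma (version 3.58.1, R version 4.3.3) fitted 1 mean per age over all 9 arrays with empirical Bayes variances. Fits were tested on simulated data.

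Named members were those called, the 10 most negative and 6 most positive in old against young ovaries, the 3 most changed in middle-aged against young ovaries, genes the study lists, the most changed of each role, RAN, RANGAP1 and KPNB1, and genes with discordant probe sets. Other members and pathway genes, among them NUP35, NUP54, NUP205, IPO4, IPO9, XPO5 and KPNA4, were named after their values were seen. Members, roles, marker lists and pathway lists were chosen with earlier results of these data known. The 21 alternatives covered scaling, filtering, variance prior, array weights, fold minimum, averaging of probe sets, fitting 2 groups only, SAM, a replicate block, symbols as written and leaving out arrays.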

Additional observations from a re-analysis of the deposited data

How the results depend on the processing

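No member was called in any of the 63 pairings of 21 alternatives with 3 comparisons. The member medians, recomputed under 15 alternatives, moved by no more than 0.0917, the pooled SD between arrays of a group. Averaging the probe sets of a gene brought old against young estimates to -0.57 for IPO5, -0.33 for IPO7, -0.15 for NUP188, -0.22 for NUP210 and -0.60 for TNPO3. The averaging also turned the sign of CSE1L, from 0.12 to -0.19, and of IPO8, from -0.03 to 0.24. The number of probe sets called across the array, 82 for old against young, 18 for old against middle-aged and 1 for middle-aged against young ovaries, was less stable, and the cause was not tested. For old against young ovaries it was 54 with probe sets averaged per gene (fewer features tested), 27 with only the compared groups fitted, 368 with SAM and 2 without the arrays numbered 3, and 4 (without young 2) to 198 (without old 2) when leaving out single arrays. For old against middle-aged ovaries it was 9 once all arrays had been given 1 common median, 5 with only the compared groups fitted, 48 with SAM and 2 without the arrays numbered 3, and 1 (without middle-aged 3) to 42 (without old 3) when leaving out single arrays. For middle-aged against young ovaries it was 0 without the arrays numbered 3, and 0 to 1 when leaving out single arrays. With the replicate number as a block these counts were 229 for old against young and 28 for old against middle-aged ovaries, with no member called. Same-numbered arrays had correlations of their deviations from -0.0247 to 0.41. Among the arrays numbered 3 these were 0.41 (young with middle-aged), 0.355 (middle-aged with old) and 0.252 (young with old). Arrays with different numbers had -0.416 to 0.249, and all such values that involved an array numbered 3 were negative. The cause was not tested, and nothing in the labels says that the numbers pair the monkeys or mark a batch.

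The number of members without overlap changed as follows, the smaller groups of the settings that leave arrays out making separation more frequent for all genes too. Brackets give the share of members against that of all genes under the same setting. For old against young ovaries, the lower count of 14 (29.8% against 13.8%) was 11 with centred arrays (23.4% against 11.9%) and 10 with averaged probe sets (21.3% against 13.4%). Leaving out single arrays gave 14 to 23 (without old 1, 48.9% against 19.5%). The higher count of 0 (0% against 7.8%) was 1 with averaged probe sets (2.13% against 8.38%) and 3 without the arrays numbered 3 (6.38% against 21%). With single arrays left out it was 0 to 3 (without old 3, 6.38% against 15.2%). For old against middle-aged ovaries, the lower count of 6 (12.8% against 9.22%) was 18 without the arrays numbered 3 (38.3% against 20.8%). It was 6 to 17 (without middle-aged 3, 36.2% against 15.3%) with single arrays left out. The higher count of 0 (0% against 5.57%) was 1 with centred arrays (2.13% against 6.43%) and 1 with averaged probe sets (2.13% against 5.8%). It was 4 without the arrays numbered 3 (8.51% against 18.3%) and 0 to 4 (without old 3, 8.51% against 14%) with single arrays left out. For middle-aged against young ovaries, the lower count of 3 (6.38% against 4.53%) was 1 with centred arrays (2.13% against 3.47%) and 13 without the arrays numbered 3 (27.7% against 15.4%). It was 3 to 11 (without young 3, 23.4% against 10%) with single arrays left out. The higher count of 1 (2.13% against 4.87%) was 0 with quantile normalization (0% against 5.81%) and 0 with averaged probe sets (0% against 5.07%). With single arrays left out it was 1 to 3 (without young 1, 6.38% against 10.1%). With 3 arrays per age and no detection calls, whether the 5 members with a mean at or below that of the median probe set (26.4) were above background could not be assessed.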
